A study of Mus musculus with 16 samples.

Results

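The genes described here encode the proteins of the cytosolic ribosome, or are relatives of such genes that carry like symbols. They were chosen by symbol, as the *Rpl* and *Rps* genes whose symbol goes on with a number together with *Rplp0*, *Rplp1*, *Rplp2* and *Rpsa*. The kinases of ribosomal protein S6, binding protein genes, retrotransposed copies and pseudogene symbols were left out. This rule found 84 genes of the 20622 in the total RNA tables, 32 of the small subunit and 52 of the large subunit. No measured value entered the choice.

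The study asked how loss of eIF4A2, an RNA helicase that works with the translation machinery, alters which mRNAs are occupied by ribosomes in lung tumour cells. Ribosome-protected fragments (RPFs), the pieces of mRNA that a ribosome shields from nuclease, and cytoplasmic total RNA were sequenced from the same lysates, giving 16 libraries. KM cells were grown from lung tumours of a mouse with LSL-MYC on both copies of *Rosa26*, in which Cre was delivered under a promoter of alveolar type II cells. All libraries therefore share the same tumour genotype, with MYC switched on by Cre, and the cells were untreated. KM_NTC cells carry a non-targeting guide with Cas9, and KM_4A2cr cells are a pool of 4 clones made with Cas9 and a guide against the coding part of *Eif4a2*. Both lines were selected with puromycin. Each line has 4 replicates, which are separate experiments done on different days, and replicate numbers are shared between the lines and between the kinds of library. Since both lines go back to 1 mouse and KM_4A2cr to few clones, the replicates measure the spread between days of culture and not between animals.

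Each ribosome holds 1 copy of nearly every ribosomal protein, so a growing cell makes these proteins in matched amounts and in very large numbers. Their mRNAs belong to the TOP class: they begin with a C that is followed by a run of pyrimidines, the terminal oligopyrimidine tract. Signalling through mTORC1 holds TOP mRNAs on ribosomes when nutrients and growth factors are plentiful. When mTORC1 is off, LARP1 binds the cap and the tract, and these mRNAs leave the ribosomes while staying stable in the cytoplasm. Footprints per mRNA is the measure in which this regulation appears.

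Libraries held 4512403 to 9621848 RPF counts and 5350920 to 9312624 total RNA counts. *Eif4a2* itself had 97.7, 122, 99.8 and 389 RPF CPM (counts scaled to the library size with TMM factors) in KM_NTC replicates 1 to 4. In KM_4A2cr the corresponding values were 51.0, 88.4, 74.8 and 346, which is lower in each of the 4 pairs, with a log2 fold change of -0.49 (adjusted p = 0.0941 by edgeR). Its total RNA had a log2 fold change of -0.18 (adjusted p = 0.504 by edgeR), and the study checked loss of the protein by western blot. The summed CPM of 6 epithelial marker genes was between 8120 and 12700 in RPFs. Of 8 alveolar markers 3 were detected in RPFs (summed CPM 85.7 to 191) and 6 in total RNA (116 to 217). *Nkx2-1*, 1 of those 6, had at most 1 count in any total RNA library. The surfactant protein genes *Sftpc* and *Sftpb* had 0 counts in every library of either kind. The study assessed the identity of KM cells partly by expression of surfactant protein C, a marker of alveolar type II cells.

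The starts of 64 of the 84 genes were found in RefSeq (GRCm38.p6). The windows below hold the 10 bases before each annotated start and the first 20 bases from it, written 5′ to 3′ on the strand of the gene. Capitals mark a TOP tract, searched as a C followed by at least 4 bases that are each C or T, with that C at most 5 bases from the annotated start on either side. The first group shows tracts in members that the values below turn on or that have long tracts, and the second group shows members of the same results without a tract in this window.
Rps6 (chr4:86857348-86857377, minus strand): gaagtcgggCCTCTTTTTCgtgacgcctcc
Rpl28 (chr7:4792955-4792984, plus strand): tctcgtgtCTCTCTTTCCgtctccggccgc
Rps27 (chr3:90213629-90213658, minus strand): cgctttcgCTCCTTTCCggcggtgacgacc
Rpl27a (chr7:109519185-109519214, plus strand): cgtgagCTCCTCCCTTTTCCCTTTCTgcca
Rpl38 (chr11:114668570-114668599, plus strand): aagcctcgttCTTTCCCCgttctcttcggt
Rplp2 (chr7:141447641-141447670, plus strand): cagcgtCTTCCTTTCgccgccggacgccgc
Rpl12 (chr2:32961702-32961731, plus strand): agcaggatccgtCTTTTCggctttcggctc
Rpl34 (chr3:130730379-130730408, minus strand): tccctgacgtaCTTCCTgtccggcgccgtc
Rplp0 (chr5:115559457-115559486, plus strand): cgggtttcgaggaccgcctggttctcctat
Rpsa (chr9:120127756-120127785, plus strand): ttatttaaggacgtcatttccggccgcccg
Rps15 (chr10:80292421-80292450, plus strand): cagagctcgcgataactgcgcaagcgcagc
Rpl37a (chr1:72711250-72711279, plus strand): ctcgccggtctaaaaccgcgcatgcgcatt
By this search 29 of the 64 genes, or 45.3%, had a tract at an annotated start. Over all genes with an entry the share was 21.2%, and over the mitochondrial ribosomal protein genes, which are not TOP mRNAs, it was 24.6%. On the opposite strand, 13.2% of the members' windows and 21.4% of all windows matched. An annotated start can lie a few bases from the true start of transcription, so a window without a match says only that these letters are not there.

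Ribosomal protein mRNAs were among the most abundant in the cells. Of the 81 members with enough total RNA counts to be tested, 76 had a mean above 1000 TPM, the length-scaled unit of the authors, in KM_NTC cells. The median was 2920 TPM, and the range ran from 102 TPM for *Rpl7l1*, a relative of *Rpl7*, to 13300 TPM for *Rpl32*, a large subunit protein. *Rpl3l*, *Rpl10l* and *Rpl39l*, paralogues known from muscle or testis, had 2, 1 and 17 total RNA counts over all 8 libraries and were not tested. *Rpl41*, the shortest ribosomal protein, had 111632 total RNA counts and 0 RPF counts. Its coding sequence is short against the first 20 and last 10 codons that the authors leave out of the RPF counts, so it was tested in total RNA only. This left 80 members tested in RPFs.

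Near-identical copies took part of the total RNA counts. *Rps27rt*, a copy of *Rps27*, had 1294 to 2805 total RNA counts per library but at most 1 RPF count. *Rpl9-ps6*, *Rpl10-ps3* and *Rpl36a-ps1* had 968 to 2036, 671 to 1159 and 773 to 1420 total RNA counts per library and at most 2 RPF counts. Reads of such copies can be exchanged with those of their parents, so levels of *Rps27*, *Rpl9*, *Rpl10* and *Rpl36a* are uncertain. Ratios of RPFs to total RNA are compared below only between libraries and not between genes, because coding lengths were not used here.

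The 84 genes together took a larger share of each total RNA library than of the RPF library of the same lysate. This gap is no measure of ribosome loading. RPF counts leave out the first 20 and last 10 codons, and *Rpl41* adds 111632 total RNA counts but 0 RPF counts. Shares are therefore compared below only within a kind of library. In RPFs their share was 4.49%, 5.53%, 5.12% and 5.84% of all counts in KM_NTC replicates 1 to 4. In KM_4A2cr it was 3.44%, 5.42%, 4.64% and 6.87%. In total RNA the shares were 9.34%, 8.37%, 8.96% and 12.8% in KM_NTC. In KM_4A2cr they were 7.75%, 8.29%, 8.64% and 18.7%. The highest share of each line and kind was in replicate 4, and replicates 1 to 3 of KM_4A2cr were below those of KM_NTC by pair in both kinds of library.

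**Figure D1:**
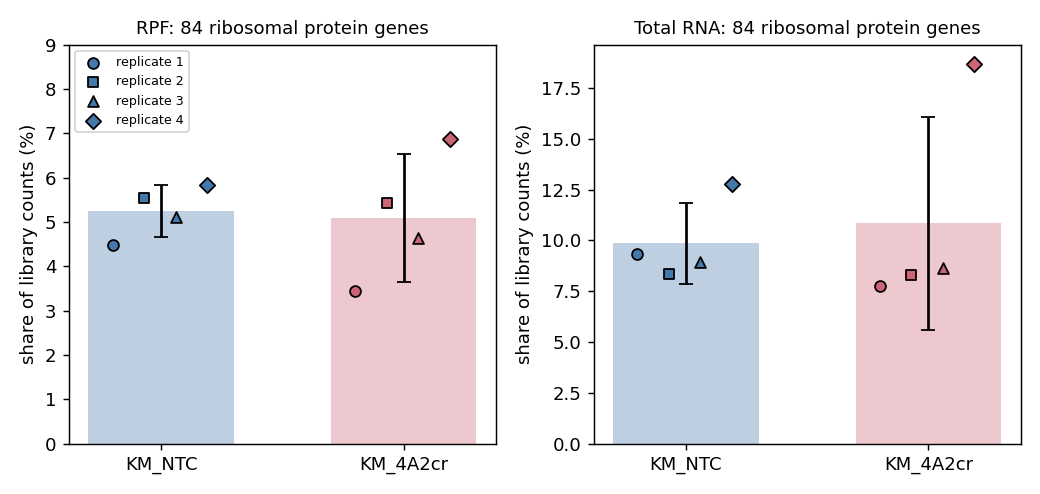
Share of all counts of each library that fell on the 84 cytosolic ribosomal protein genes, in percent, for RPFs (left) and total RNA (right). Bars are means of 4 replicates, error bars are SD, and marker shapes give the replicate. Replicate 4 is highest in each group, and reaches 18.7% in KM_4A2cr total RNA against 7.75% to 8.64% in the other replicates of that line.

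Means were close between the lines beside this spread. KM_NTC had 5.25% ± 0.583 and KM_4A2cr 5.09% ± 1.44 (SD, n = 4) in RPFs, and 9.87% ± 2.0 and 10.8% ± 5.25 in total RNA. Within replicate 4, the KM_4A2cr share was 1.46 times the KM_NTC share in total RNA and 1.18 times in RPFs. Within replicates 1 to 3 the same ratio ran from 0.83 to 0.99 in total RNA and from 0.766 to 0.98 in RPFs. Wilson intervals (95%) around each share were at most ± 0.0233 percentage points in RPFs and ± 0.033 in total RNA, and cover counting error only. In TPM, which weights by length, the members took 26.1% to 36.3% of KM_NTC and 25.3% to 45.1% of KM_4A2cr total RNA, again with replicate 4 highest. In replicate 2 the KM_4A2cr share of TPM was 1.02 times that of KM_NTC, unlike the share of counts, which was lower.

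The day of the experiment separated the ribosomal protein genes more than the cell line did. Replicate 4 was set against replicates 1 to 3 within each line. The difference was a median of 0.82 on the log2 CPM scale over the 80 members in RPFs (0.66 in KM_NTC and 0.94 in KM_4A2cr) and of 1.11 over 81 members in total RNA (0.76 and 1.49). The medians over all genes were -0.02 in RPFs and 0.02 in total RNA. In total RNA the difference was larger in KM_4A2cr than in KM_NTC in 80 of the 80 members measured in both kinds, and in RPFs in 68. In RPFs, 69 of 80 members had both replicate 4 libraries above all 6 others, against 18.2% of all genes tested. In total RNA this held for 77 of 81 members, against 19.5%. With scaling by library size alone the RPF count was 42 and the RPF median 0.46, but the median of all genes was then -0.36, so the members lay 0.82 above it, against 0.83 with TMM factors. No test was made of this difference, since replicate 4 was picked out with earlier results of these data known.

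**Figure D2:**
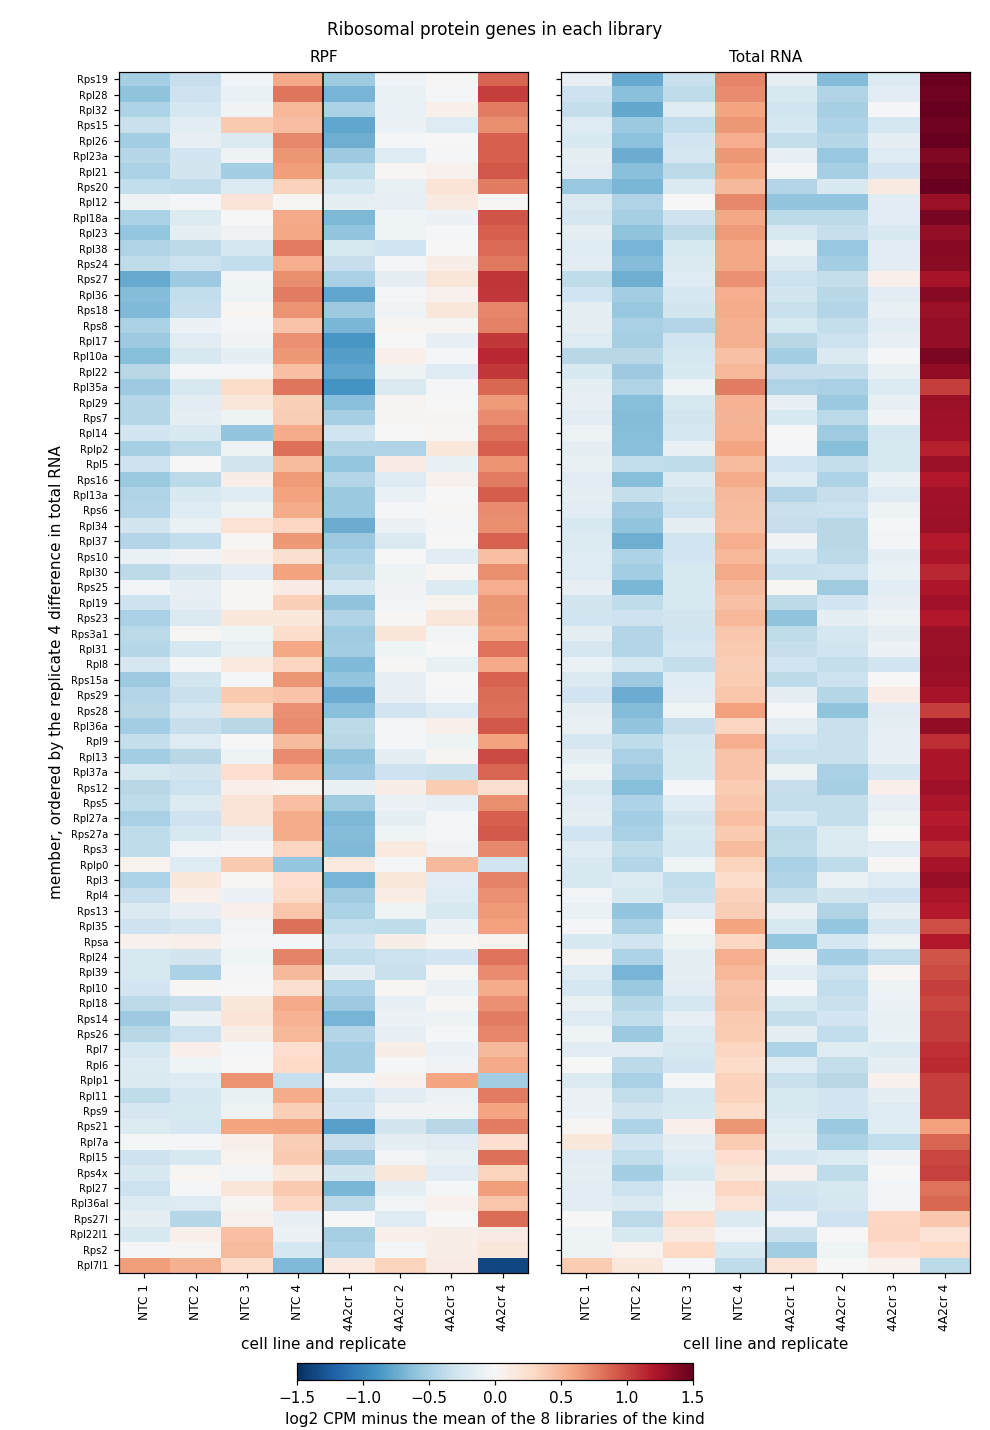
Log2 CPM of 78 members measured in both kinds of library, minus the mean of the member over the 8 libraries of that kind, with RPFs on the left and total RNA on the right. Columns are cell lines (NTC for KM_NTC, 4A2cr for KM_4A2cr) and replicates. Replicate 4 columns are red for nearly all members, most strongly in KM_4A2cr total RNA, while *Rpl7l1* at the bottom is blue there.

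*Rpl28*, a large subunit protein with a TOP tract at its start, had the largest replicate 4 difference in RPFs. Its RPF values were 508, 626, 723 and 1350 CPM in KM_NTC replicates 1 to 4 and 475, 723, 759 and 1580 CPM in KM_4A2cr. Its total RNA values were 474, 383, 451 and 967 CPM, and 497, 431, 530 and 1620 CPM. Both replicate 4 libraries lay above all others in each kind, with differences of 1.23 in RPFs and 1.45 in total RNA. *Rpl36* and *Rpl10a*, also of the large subunit, followed in RPFs with 1.22 and 1.19. *Rps6*, the substrate of the S6 kinases, had 1170, 1390, 1510 and 2320 RPF CPM in KM_NTC and 1080, 1560, 1610 and 2600 in KM_4A2cr. It showed the same order, with replicate 4 highest in each line.

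A small group of members did not show this in RPFs. *Rplp0* and *Rplp1*, proteins of the stalk that recruits translation factors to the large subunit, had fewer RPFs in replicate 4 but more mRNA. *Rplp0* had 457, 385, 576 and 293 RPF CPM in KM_NTC and 488, 436, 616 and 357 in KM_4A2cr. Its total RNA was 3070, 2640, 3440 and 4540 CPM in KM_NTC and 2570, 2770, 3620 and 8470 in KM_4A2cr. The replicate 4 libraries were thus the lowest of each line in RPFs and the highest in total RNA, with differences of -0.59 and 1.05.

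*Rplp1* had 292, 295, 540 and 266 RPF CPM in KM_NTC and 328, 354, 508 and 236 in KM_4A2cr. In total RNA it had 983, 813, 1120 and 1440 CPM, and 904, 852, 1180 and 2340 CPM. The pattern was that of *Rplp0*, with differences of -0.58 in RPFs and 0.92 in total RNA. *Rplp2*, the partner of RPLP1 in the stalk, did not share it. Its RPF values of 214, 229, 286 and 537 CPM in KM_NTC and 221, 221, 339 and 565 in KM_4A2cr were highest in replicate 4, with differences of 1.15 in RPFs and 1.18 in total RNA.

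*Rpl12*, which forms the base on which the stalk sits, had nearly level RPFs of 504, 524, 605 and 535 CPM in KM_NTC and 477, 489, 582 and 538 in KM_4A2cr. Its total RNA was 3110, 2640, 3620 and 5920 CPM in KM_NTC and 2380, 2400, 3190 and 8830 in KM_4A2cr, so replicate 4 differed by 1.34 in mRNA and by 0.02 in RPFs. *Rpsa*, the small subunit protein also known as the laminin receptor, had RPFs of 401, 403, 378 and 377 CPM in KM_NTC and 313, 409, 390 and 397 in KM_4A2cr, a difference of 0.02. Its total RNA differed by 1.01. *Rps12*, a small subunit protein, differed by 0.19 in RPFs and 1.10 in total RNA. *Rps2* and *Rpl22l1* had mean differences near 0 in both kinds, -0.055 and 0.02 in RPFs and 0.04 and 0.12 in total RNA. For *Rps2* the lines went opposite ways, with -0.415 in KM_NTC and 0.30 in KM_4A2cr RPFs.

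**Figure D3:**
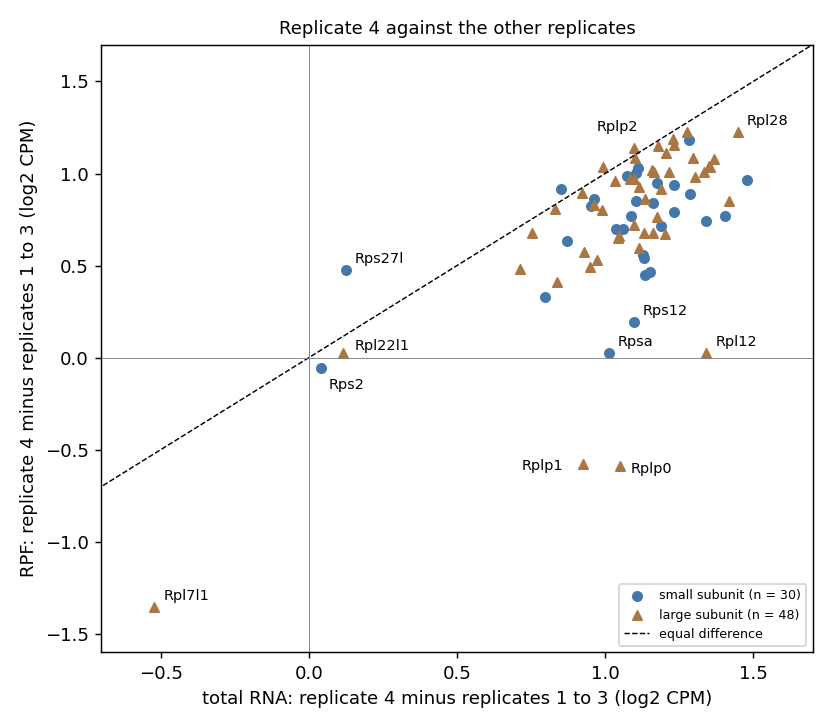
Difference of replicate 4 from the mean of replicates 1 to 3 (log2 CPM, averaged over the 2 cell lines) in total RNA (horizontal) and RPFs (vertical) for 78 members, with small and large subunit genes marked apart. Points under the dashed line differ less in RPFs than in total RNA: *Rplp0* and *Rplp1* lie at -0.59 and -0.58 in RPFs, and *Rpl12*, *Rpsa* and *Rps12* lie near 0. *Rps2* and *Rpl22l1* lie near 0 in both kinds.

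Set per mRNA, the members had fewer footprints in replicate 4 of KM_4A2cr. Averaged over the lines, the log2 ratio of RPF CPM to total RNA CPM was lower in replicate 4 by a median of 0.29 over 80 members. It was lower by 0.10 in KM_NTC and by 0.53 in KM_4A2cr, and the median over all genes was 0.01. In KM_NTC the family median minus that of all genes was -0.43 in replicate 4, within the -0.73 to -0.22 of the other replicates. In 10 of the 80 members both replicate 4 lysates had a ratio below all 6 others, against 10.7% of all genes tested, so this count is near the background. It was 40 when replicate 1, the other low replicate, was left out, and 22 with scaling by library size alone. The share of all genes was not counted under these settings, and leaving out a replicate leaves fewer lysates to lie below. These counts therefore cannot be set against the 10.7%. The 10 were *Rplp0*, *Rplp1*, *Rpl12*, *Rpsa*, *Rps12*, *Rpl7l1*, *Rps10*, *Rps25*, *Rps20* and *Rps23*. The largest differences were those of *Rplp0* (-1.64), *Rplp1* (-1.503) and *Rpl12* (-1.32), and the ratio of *Rps27l*, a relative of *Rps27*, differed by 0.35 the other way. *Rps21* and *Rpl24* followed it at 0.06 and 0.04.

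The members with and without a TOP tract in the window were alike in the direction of these medians. In replicate 4 the 29 genes with a tract had medians of 0.84 in RPFs, 1.13 in total RNA and -0.19 in the ratio. The 31 tested genes without a tract had 0.72, 1.10 and -0.35. *Rpl34* had a tract at its other annotated start too. Entries for *Rplp1* and *Rps29*, among others, were missing from the table.

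*Rpl7l1*, a relative of *Rpl7* that was included by its symbol, stood apart from the family in the other direction. It had 136, 126, 105 and 55 RPF CPM in KM_NTC and 96.6, 110, 95.3 and 33.7 in KM_4A2cr, and replicate 4 was the lowest in both lines. Total RNA of this gene was 138, 117, 103 and 81.1 CPM, and 121, 105, 110 and 79.5 CPM. The differences were -1.36 in RPFs and -0.52 in total RNA. *Rpl7l1*, *Rplp0* and *Rplp1* were the 3 members with both replicate 4 RPF libraries below all others, against 18.9% of all genes.

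Other values moved with replicate 4 as well. Its libraries were the shallowest of each line and kind, with 4512403 to 5703271 counts. The sum of 5 immune marker genes was 779 and 695 CPM in replicate 4 RPFs of KM_NTC and KM_4A2cr and 74.5 to 127 CPM in the other 6 libraries. In total RNA it was 162 and 153 against 20.3 to 39.6 CPM. Nearly all of that sum was *Cd68*, a lysosomal membrane protein abundant in macrophages, with 777 and 695 RPF CPM. *Ptprc*, which all leukocytes express, had 0 to 2.33 RPF CPM in all 8 libraries with 1.26 and 0 in replicate 4, and *Cd3e* had 0.

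The sum of 7 fibroblast markers was 21.4 and 14.3 RPF CPM in replicate 4 against 2.63 to 11.5, and that of 3 endothelial markers was 16.8 and 11.6 against 1.45 to 4.25. Only 2 of the 7 fibroblast markers were detected in RPFs, *Col1a1* and *Pdgfra*. *Col1a1* had 0 RPF CPM in both replicate 4 libraries, so the fibroblast sum there was *Pdgfra* alone. The part of depth and of these genes in the ribosomal protein values was not tested. Replicate 4 and the day of its experiment cannot be told apart. In bulk libraries, fewer cells of a type and less RNA per cell cannot be told apart either.

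Between the cell lines, no ribosomal protein gene passed the test in RPFs. The edgeR fit took the replicate as a block and used an adjusted p threshold of 0.1 over all genes. Of 80 members 0 were called, 6 had an unadjusted p under 0.05, and DESeq2 also called 0, while 10.3% of all genes tested were called. Over all genes, 2411 of the 10291 tested had an unadjusted p under 0.05. The median log2 fold change of KM_4A2cr over KM_NTC was 0.06, against -0.01 over all genes, with 55 members above 0 and 25 below. By pair the median was -0.15, 0.14, -0.05 and 0.24 in replicates 1 to 4.

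The 3 members with the smallest p in RPFs did not pass. *Rps27*, a small subunit protein with a zinc finger, had 168, 194, 275 and 460 CPM in KM_NTC and 202, 259, 321 and 598 in KM_4A2cr. KM_4A2cr was above KM_NTC in 4 of 4 pairs, by 0.32 on the log2 scale (SE 0.12, adjusted p = 0.146 by edgeR). *Rpl7l1* was below in 4 of 4 pairs, with -0.37 (SE 0.14, adjusted p = 0.152 by edgeR). *Rps12* was above in 4 of 4 pairs, with 0.30 (SE 0.12, adjusted p = 0.163 by edgeR).

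In total RNA 0 of 81 members were called by edgeR, 3 had an unadjusted p under 0.05, and 6.13% of all genes tested were called. Over all genes, 1995 of the 10880 tested had an unadjusted p under 0.05. DESeq2 called *Rps20* alone. The median log2 fold change was 0.23 against 0.01 over all genes, with 74 members above 0 and 7 below. That median rested on replicate 4: by pair it was -0.11, 0.13, 0.12 and 0.76, and without replicate 4 it was 0.04. Among the smallest p values were those of small subunit genes. *Rps20* had 0.49 (SE 0.19, adjusted p = 0.199 by edgeR) and *Rps4x*, the X-linked small subunit gene, 0.36 (SE 0.14, adjusted p = 0.227 by edgeR). Both genes were above in 4 of 4 pairs.

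RPFs relative to total RNA, the translational efficiency, gave calls between the lines in the edgeR fit of all replicates. In an edgeR model of all 16 libraries with a term for unequal change of RPFs and RNA, 6 of 80 members fell in KM_4A2cr and 0 rose, against 1.04% of all genes tested called lower. The median log2 change was -0.16 against -0.02 over all genes, with 74 members below 0 and 6 above. An unadjusted p under 0.05 was found in 24 members, and in 1410 of all 9989 genes tested. In 24 of 80 members the change was below 0 in each of the 4 pairs, against 11.3% of all genes. The median change rested mainly on replicate 4: by pair it was -0.04, 0.01, -0.15 and -0.50.

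The 6 that fell were 4 small subunit genes and 2 large subunit genes, each below 0 in 4 of 4 pairs. Values are given for 4 of them. *Rps29*, a short zinc-binding protein of the small subunit, had RPFs of 193, 207, 345 and 353 CPM in KM_NTC and 157, 240, 258 and 470 in KM_4A2cr. Its total RNA was 1210, 882, 1310 and 1980 CPM, and 1350, 1100, 1590 and 3480 CPM. The higher mRNA of KM_4A2cr came with a smaller rise of RPFs in replicates 2 and 4 and with a fall of RPFs in the others. The efficiency changed by -0.42 on the log2 scale (SE 0.10, adjusted p = 0.0525 by edgeR). *Rps15*, a small subunit protein near the decoding centre, had RPFs of 319, 359, 528 and 552 CPM in KM_NTC and 234, 376, 352 and 650 in KM_4A2cr. The mRNA was at 921, 714, 818 and 1650 CPM, and 879, 766, 875 and 2890 CPM. Its efficiency differed by -0.42 (SE 0.10, adjusted p = 0.0543 by edgeR), and replicate 2 differed least, with -0.03.

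*Rpl37a*, a zinc-binding large subunit protein, had RPFs of 308, 301, 434 and 544 CPM in KM_NTC and 249, 293, 289 and 669 in KM_4A2cr. Its total RNA was 506, 363, 453 and 710 CPM, and 501, 377, 446 and 1230 CPM, so the lines were close in total RNA in replicates 1 to 3. On the log2 scale the efficiency changed by -0.36 (SE 0.10, adjusted p = 0.0745 by edgeR). *Rpl34*, a large subunit protein with a TOP tract at its start, had RPFs of 408, 462, 578 and 617 CPM in KM_NTC and 295, 467, 488 and 806 in KM_4A2cr. KM_4A2cr was lower in replicates 1 and 3 and higher in replicates 2 and 4, and the efficiency changed by -0.33 (SE 0.09, adjusted p = 0.0893 by edgeR).

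**Figure D4:**
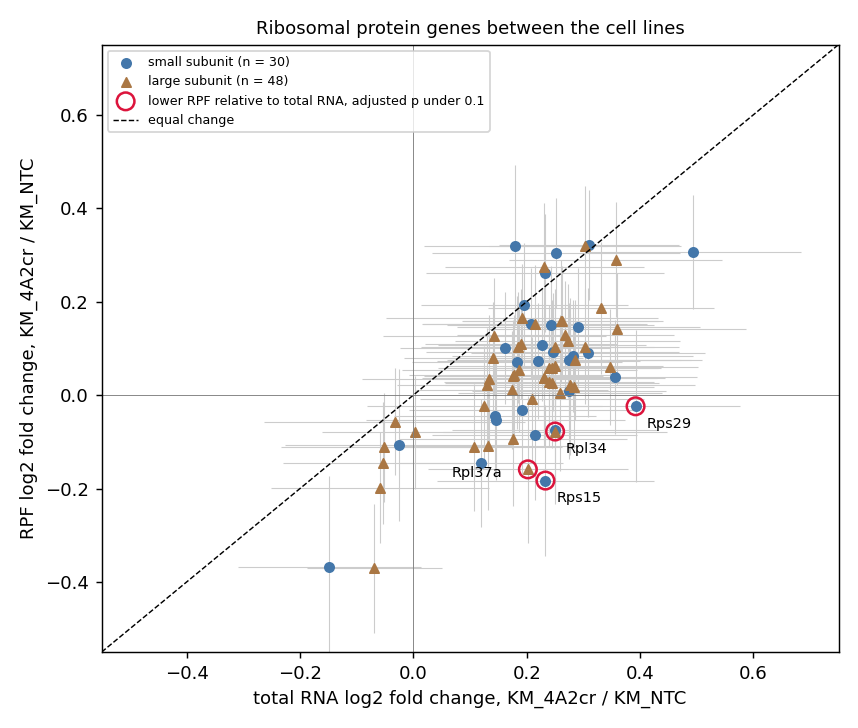
Log2 fold change of KM_4A2cr over KM_NTC in total RNA (horizontal) and RPFs (vertical) for 78 members, with standard errors as bars and the subunits marked apart. The dashed line is equal change, most points lie below it, and circles mark 4 genes called lower in translational efficiency: *Rps29* (-0.42), *Rps15* (-0.42), *Rpl37a* (-0.36) and *Rpl34* (-0.33).

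None of the 6 passed in RPFs or total RNA alone. Their RPF log2 fold changes ran from -0.18 for *Rps15* to -0.02 for *Rps29*, and their total RNA changes from 0.20 for *Rpl37a* to 0.39 for *Rps29*. Without the replicate block 0 members were called, and *Rps29* then had the same -0.42 (adjusted p = 0.961 by edgeR). Without replicate 1 and without replicate 3 there were 0 calls, and without replicate 2 there was 1, *Rps15*. Over these 3 fits *Rps29* had changes of -0.40, -0.29 and -0.52 without replicates 1, 3 and 2. With scaling by library size alone there was 1, and at a threshold of 0.05 there was 1.

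Without replicate 4, the replicate in which the family was highest, more members passed. In translational efficiency 11 were lower, the 6 above among them, against 2.58% of all genes tested. The others were *Rps21*, *Rpl22*, *Rpl10*, *Rps25* and *Rpl37*. *Rps12* alone was higher, with 0.31 (adjusted p = 0.0235 by edgeR), against 4.1% of all genes. The change of *Rps29* was then -0.41 (adjusted p = 0.0113 by edgeR).

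In RPFs without replicate 4, 6 members were higher and 6 lower, against 19.1% and 14.3% of all genes tested, so both shares were below the background. *Rps12* (0.34), *Rpl21* (0.33), *Rpl36a* (0.31), *Rps27* (0.30), *Rps24* and *Rps20* were higher. *Rps21*, a small subunit protein, had the largest fall (-0.55, adjusted p = 0.0177 by edgeR), and *Rps15*, *Rpl37a*, *Rps2* and *Rpl7l1* were among the others. *Rps15* and *Rpl37a* are thus lower in RPFs as well as in translational efficiency in these 3 replicates.

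In total RNA without replicate 4, 5 members were higher and 2 lower, against 17.8% and 12.0% of all genes tested. *Rps20* (0.31), *Rps29* (0.24), *Rpl37* (0.24) and *Rps27* (0.22) were among those higher, and *Rpl7a* (-0.25) and *Rpl12* (-0.24) were lower. The family median without replicate 4 was -0.005 in RPFs, 0.04 in total RNA and -0.05 in translational efficiency.

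Footprints per mRNA of the family varied more between days than between lines in replicates 1 to 3. The members' median log2 ratio, minus the median of all genes of the lysate, was -0.73, -0.22, -0.32 and -0.43 in KM_NTC replicates 1 to 4. In KM_4A2cr it was -0.79, -0.23, -0.41 and -0.92. Replicate 1 was low in both lines, replicate 2 was high in both, and the lines were farthest apart in replicate 4.

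**Figure D5:**
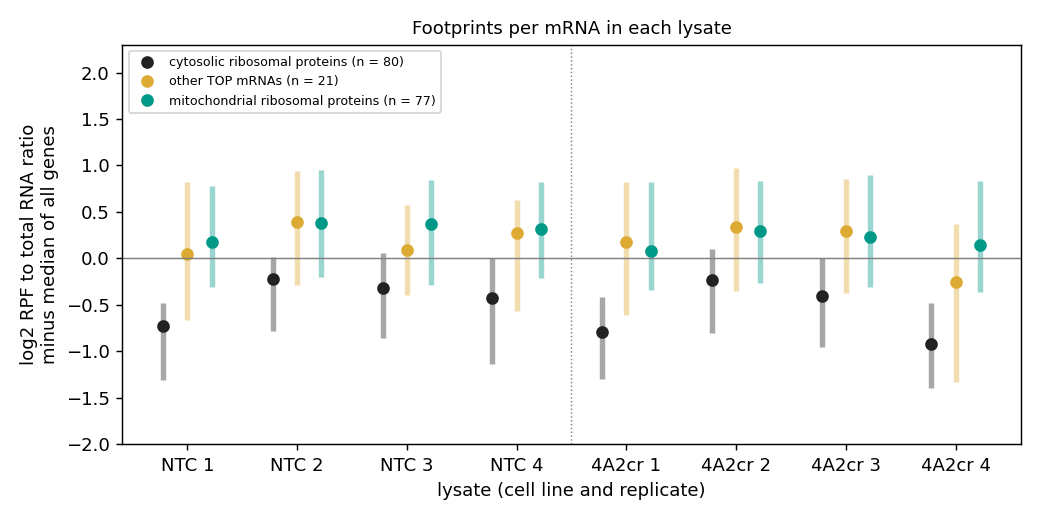
Median log2 ratio of RPFs to total RNA (CPM) in each lysate, minus the median of all genes in that lysate, for the members and for 2 other gene groups, with vertical bars from the lower to the upper quartile of the group. Among the 8 lysates the members are lowest in KM_4A2cr replicate 4 (-0.92) and highest in KM_NTC replicate 2 (-0.22), and heights are not to be compared between the gene groups, since coding length is not taken into account.

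Members with roles beyond the shared one did not pass in the edgeR fits of all replicates with TMM factors. *Rplp0*, *Rplp1*, *Rplp2*, *Rpsa*, *Rps6*, *Rps27a*, which is made as a fusion with ubiquitin, and *Rpl5* and *Rpl11*, which carry the small ribosomal RNA of the large subunit and can inhibit MDM2, had adjusted p values of 0.438 to 0.872 in RPFs, 0.477 to 0.791 in total RNA and 0.294 to 0.956 in translational efficiency, all by edgeR. Their translational efficiency changes were all below 0, from -0.22 to -0.02.

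Paralogue pairs did not pass in these fits either. With scaling by library size alone, *Rpl7l1* was called lower in RPFs, with -0.50 (adjusted p = 0.0604 by edgeR). *Rps27l*, a target of p53, had an RPF log2 fold change of 0.32 (adjusted p = 0.303 by edgeR) and its parent *Rps27* one of 0.32. In KM_4A2cr replicate 4 *Rps27l* had 311 RPF CPM, against 152 to 174 in the other libraries of that line. *Rpl22l1* and *Rpl22*, which can stand in for each other, had total RNA replicate 4 differences of 0.12 and 1.22. *Rpl36al* and *Rpl36a* had 0.71 and 1.10, and *Rpl7l1* and *Rpl7* had -0.52 and 0.95. Each of these 3 relatives thus differed less than its parent, or the other way.

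Other TOP mRNAs, chosen as a list of 22 elongation factors, initiation factor subunits and related genes, were higher in replicate 4 too. Their median difference was 0.52 in RPFs (21 genes) and 0.94 in total RNA (22 genes), and their footprints per mRNA differed by -0.30, close to the -0.29 of the members. Between the lines their median RPF fold change was 0.06. Of them *Vim* was the only one called between the lines, higher in KM_4A2cr by 1.78 in RPFs (adjusted p = 0.00174 by edgeR) and by 1.63 in total RNA (adjusted p = 0.00227 by edgeR). *Eef1a1*, which brings aminoacyl-tRNA to the ribosome, had a total RNA replicate 4 difference of 1.15 and *Eef2*, the translocation factor, one of 1.20. In translational efficiency 0 of 21 were called and the median was -0.10.

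The mitochondrial ribosomal proteins, which build a separate ribosome and have no TOP mRNAs, did not share the replicate 4 pattern. Their median difference was -0.21 in RPFs (77 genes) and -0.11 in total RNA (78 genes). Between the lines 5 of 77 fell in RPFs and 0 rose, against 3.72% of all genes called lower, with a median log2 fold change of -0.17, and 63 of 77 were below 0. In translational efficiency 1 of 77 fell, near the 1.04% of all genes, and the median was -0.08. Whether the 2 ribosomes differ in these changes was not tested.

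Of 19 regulators of TOP mRNAs, 2 were called in RPFs, which is near the 10.3% of all genes, and 1 was higher in translational efficiency, against 1.87% of all genes. *Eif4ebp2*, an inhibitor of the cap-binding protein that mTORC1 inactivates, rose by 0.74 in RPFs (adjusted p = 0.0856 by edgeR) and by 0.64 in translational efficiency (adjusted p = 0.0893 by edgeR). *Cnbp*, a nucleic acid binding protein reported on TOP mRNAs, fell by 0.43 in RPFs (adjusted p = 0.083 by edgeR). *Larp1* had log2 fold changes of 0.19 in RPFs and -0.08 in total RNA (adjusted p = 0.443 and 0.788 by edgeR), and *Mtor* had -0.09 and -0.03 and did not pass.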

How the data were processed

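The authors deposited RPF counts per transcript (whole numbers, from fragments of 28 to 33 nt, leaving out the first 20 and last 10 codons) and RSEM expected counts and TPM per isoform. They trimmed with Cutadapt 1.18, aligned RPFs with BBmap and total RNA with Bowtie2 2.3.5.1 (RSEM 1.3.3) to a filtered GENCODE vM27 transcriptome, and collapsed duplicates with UMI-tools 1.0.1 (versions per the submitters' processing notes). Scaling within each kind of library leaves no trace of a change of all footprints or all mRNA.

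Expected counts were summed per gene and rounded (per library, 27 to 58 isoforms had a fractional value). In R 4.3.3, edgeR 4.0.16 fits used filterByExpr, TMM factors, glmQLFit and glmQLFTest, a block for the replicate number beside the cell line, and Benjamini-Hochberg adjustment over all genes tested. Translational efficiency was the interaction over 16 libraries, with TMM factors set within a kind, a term per lysate and a replicate block in each kind. Log2 CPM used a prior count of 2. Tests were tried on simulated counts first. DESeq2 1.42.0 was an alternative.

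Replicate numbers pair the libraries: they mark days, and deviations from the line means correlated between same-numbered libraries at 0.575 to 0.782 in RPFs and 0.611 to 0.756 in total RNA. Replicates are cultures of 1 line each, so p values measure the spread between days of culture.

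The members and all lists were chosen with earlier results of these data known. Genes named are members called in a fit (or the 3 smallest p), those with extreme replicate 4 differences, and members of known special role or paralogy. The rule also held the extreme ratios of RPFs to total RNA, which are left out since they are not per coding length. *Rpl12*, *Rpsa*, *Rps12*, *Rps10*, *Rps25*, *Rps20*, *Rps23*, *Rpl32* and the members called without replicate 4 were named after their values were seen. Values of some members and part of the genotype of the mouse are not reported here, though counts and medians over the members include all that were tested.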

Additional observations from a re-analysis of the deposited data

Results flagged for a closer look

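Groups of 4 libraries were searched for a library far from the other 3 by Dixon's criterion, over the members' shares of libraries, their median ratio and the CPM of 19 members. Of 84 groups 16 were past the limit, where chance gives about 1 in 20; the members move together and share libraries, so these are not 16 separate cases.

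In KM_4A2cr, replicate 4 held 18.7% of total RNA counts and 45.1% of TPM on the family. The same library was the far one in total RNA CPM for *Rps15* (2890), *Rpl37a* (1230), *Rpl34* (3310), *Rps20* (2860), *Rpl12* (8830), *Rpl28* (1620), *Rpl10a* (2570), *Rpl36* (1220) and *Rps6* (6110). In RPFs of KM_4A2cr, replicate 4 was far above the others for *Rpl37a* (669 CPM) and *Rps27l* (311 CPM).

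In KM_NTC, replicate 4 was the far library in total RNA for *Rpl28* (967 CPM) and *Rpl10a* (1310 CPM). *Rplp1* was the case of another replicate: its 540 RPF CPM in KM_NTC replicate 3 stood above 266 to 295 in the other 3.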

How the results depend on the processing

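Of the summary values of the members, 184 stayed alike under an alternative, 21 moved and 2 turned sign. Counts of members stayed alike if they were equal or differed by at most a fixed factor. Medians and shares stayed alike if they shifted by less than their SD between replicates. By this wide rule the fall of the total RNA median between the lines without replicate 4 also stayed alike. Of values of single members 176 stayed, 23 were no longer past the threshold, 6 became so, 7 moved and 4 turned sign. The median RPF fold change of members between the lines turned to -0.074 with scaling by library size alone and to -0.005 without replicate 4, and leaving out each replicate gave -0.005 to 0.116. With library size scaling the median over all genes was -0.145 (RPFs) and -0.146 (total RNA). There was then 1 member lower in RPFs, *Rpl7l1*, and 1 in translational efficiency. Without the replicate block 0 members were lower in translational efficiency (adjusted p of the 4 genes described 0.957 to 0.981 by edgeR), at a threshold of 0.05 there was 1, and DESeq2 gave 7 there and 1 higher in total RNA. The block changed no other count of calls. Leaving out each replicate gave 0 to 6 members higher and 0 to 6 lower in RPFs, 0 to 5 higher and 0 to 2 lower in total RNA, and 0 to 1 higher and 0 to 11 lower in translational efficiency.

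For replicate 4 against the others, library size scaling gave medians of 0.458 in RPFs and 0.85 in total RNA, 42 members above all others in RPFs and 22 below in footprints per mRNA. The medians of all genes moved alike, to -0.365, -0.24 and, in footprints per mRNA, -0.086. Leaving out each of replicates 1 to 3 gave 10 to 40 members below in footprints per mRNA, with 40 without replicate 1. The share of all genes was not counted under these alternatives, so their counts have no background beside them. *Rps21* and *Rpl24*, which are near 0 in this ratio, turned to -0.033 and -0.055 with library size scaling and ranged from -0.148 to 0.195 and from -0.103 to 0.14 when a replicate was left out. In deposited TPM the family's mean share of total RNA was 29.6% in KM_NTC and 31.1% in KM_4A2cr. Causes of these changes were not tested. A variant with the whole coding sequence as length was not run, since coding lengths were not used here. Whether changes as small as the family's medians could be called gene by gene at this depth was not tested.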
